A study of Mus musculus with 2 samples.

Results

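Translation initiation and elongation factors are the proteins that bring the ribosome to an mRNA, find the start codon and then move the ribosome along the coding sequence. To describe their mRNAs, RNA-sequencing of 4T1 cells, a murine mammary carcinoma line of wild-type genotype according to its labels, was used. One library came from cells treated with 20 μM astragalin (AS), a plant flavonoid, for 24 h, and 1 library came from cells given the vehicle. The genes were taken by name, as every row of the deposited table whose symbol starts with Eif or Eef followed by a digit. The 4 eIF2 kinase genes (Eif2ak1 to Eif2ak4) and 2 pseudogene rows were left out, which left 61 of the 14197 genes in the table. With 1 library per condition, no difference has a replicate check and no test between the conditions could be made. The labels name no clone or passage, and whether the sequenced cells were the luciferase-labelled line of the same study is not stated.

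The table does not name the unit of its values, and they were read as RPKM, reads divided by exon length in kilobases and by the size of the library, because they gave whole reads on that scale. The columns were matched to the libraries by their titles. Whole reads were recovered for all 61 genes, and 1294443 reads with AS and 1391867 with vehicle fell on them. The genes ranged from 44 to 346179 reads with AS and from 46 to 314507 reads with the vehicle. The recovered reads over all genes of the table came to 44820058 with AS and 50723559 with the vehicle. The interval beside a value is the 95% Clopper-Pearson interval of the ratio of a gene's reads in the libraries. It covers counting error only, since reads without molecular identifiers are not independent molecules, and the spread between dishes is not known. All 6 epithelial markers were in the table (Krt8, Krt18, Krt19, Epcam, Cdh1 and Cldn4), with a summed RPKM of 1691 under AS and 2143 under vehicle, of which Cdh1 (95.5 and 84.6) and Cldn4 (45.8 and 34.15) were higher with AS and the others lower. Of 5 leukocyte markers, 3 were in the table with a summed RPKM of 26.6 and 30.1, most of it Cd68, while Ptprc was at 0.116 and 0.114. None of 3 endothelial markers (0 of 3) and 1 of 3 fibroblast markers, Pdgfra at 4.24 and 4.16, had a row. The part of these differences in the results below was not tested.

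Initiation starts when eIF2 carries the initiator tRNA to the small ribosomal subunit, together with eIF1, eIF1A, eIF3 and eIF5. The mRNA is brought in by the eIF4 factors, which bind the cap and unwind the 5′ end, and 4E-BP proteins block this step by holding eIF4E. Phosphorylation of the alpha subunit of eIF2 during stress turns eIF2 into an inhibitor of its own exchange factor, eIF2B, and lowers initiation in general while mRNAs such as that of ATF4 are still read. In elongation, eEF1A delivers aminoacyl-tRNA, eEF1B recharges eEF1A with GTP, eEF2 moves the ribosome and eIF5A helps it past difficult stretches.

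The factor mRNAs were abundant and differed little between the libraries. Their median RPKM, as the mean of both libraries, was 31.9 against 4.95 for all genes, and 53 of the 61 were above the latter. Together they took 2.89% of the reads under AS and 2.74% under vehicle. Without Eif3a the shares were 2.12% in both libraries, so the higher share with AS rested on that gene. The median log2 fold change of AS over vehicle was 0.01, against 0.07 for all genes of the table. For this, 0.1 RPKM was added to each value, so that the ratio of a weakly expressed gene is drawn towards 0. Other scalings of the libraries lowered all values by 0.07 or 0.08, so genes above 0 by less than this came to lie below it. Of the 61 genes, 32 (52.5%) were higher and 29 lower with AS, while 60.9% of all genes were higher. The fold changes ran from -0.45 for Eef1akmt1 to 0.69 for Eif4ebp1, with quartiles of -0.13 and 0.14. The paper names a log2 fold change beyond 1, with a limit on the false discovery rate that was not applied here. A log2 fold change over 1 was reached by 0 factor genes, against 0.662% of all genes, and a log2 fold change under -1 by 0, against 0.31% of all genes. A 1.5-fold difference, with a limit on the p-value that was also not applied here, is named in the paper too. At this lower threshold, 1 factor gene was higher, against 3.56% of all genes, and 0 were lower, against 2.01% of all genes. These counts are near or under what the background would give for 61 genes. Within 0.2 of 0 on the log2 scale lay 44 of the genes (72.1%), against 56.1% of all genes and 64.3% of the 4520 genes with a mean RPKM at or above the lower quartile of the factor genes, which was 10.2. Of these 4520 genes, 51.4% were higher with AS, and their median log2 fold change was 0.01. Against genes of this level, the factor genes thus did not stand apart in median or in the share that was higher. At least 1.5-fold, 88 of the 4520 rose and 82 fell. The named genes below are those with the highest level and the largest difference either way in each functional group.

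**Figure D1:**
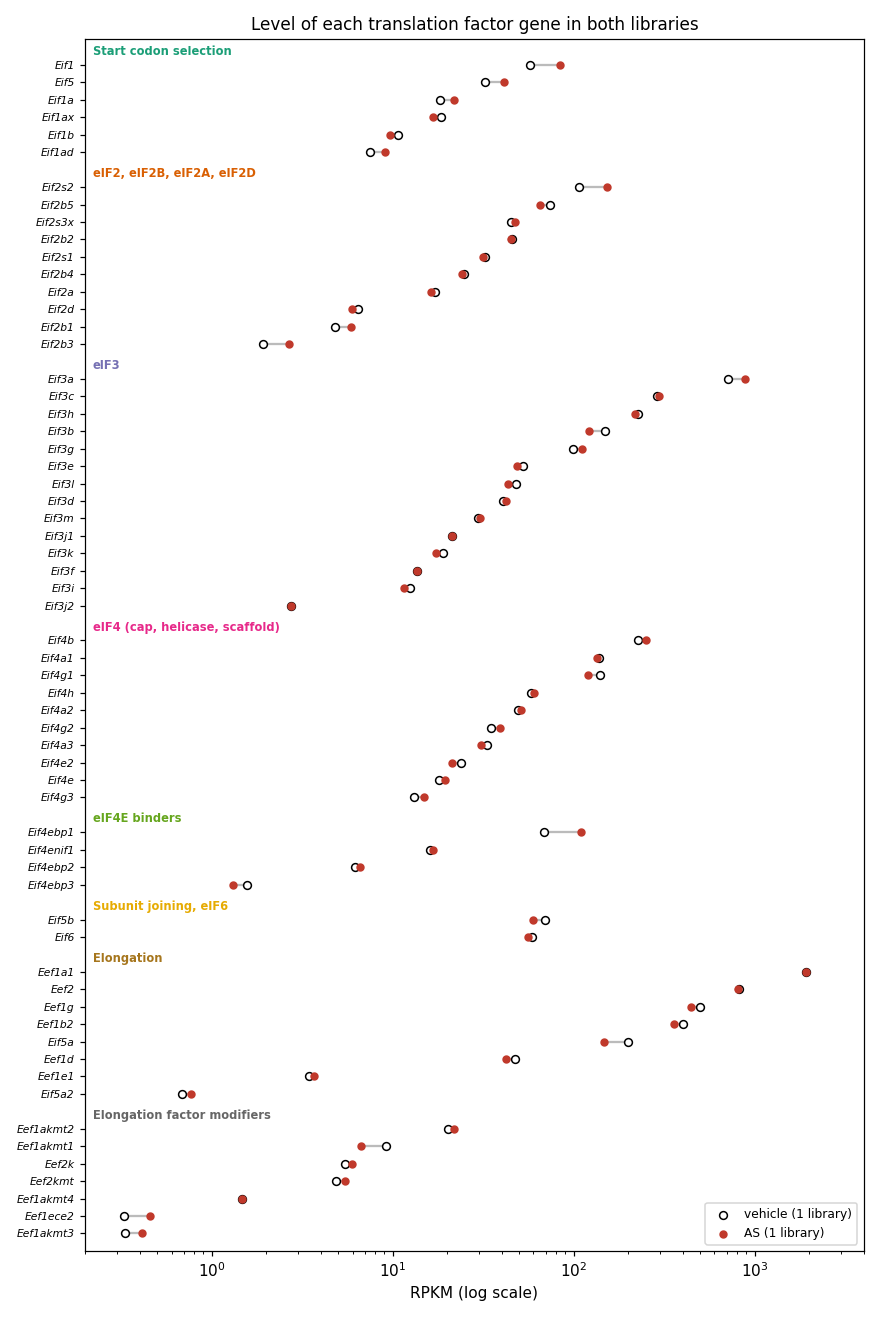
RPKM of each factor gene on a log axis, with an open circle for the vehicle library and a red circle for the AS library, grouped by role and ordered by level within each role. The levels run from under 1 RPKM (Eef1akmt3, Eef1ece2, Eif5a2) to 1925 RPKM (Eef1a1 with AS), and the distance between the circles is small beside this range for every gene.

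The genes of the factors that choose the start codon held 4 of their 6 members higher with AS, against 60.9% of all genes. Their median of 0.26 was the highest of the groups of factor genes. Eif1, whose protein keeps the scanning ribosome open and guards against wrong start codons, is found at chromosome 11, 100319885 to 100322096, plus strand, of GRCm38. It measured 84.1 RPKM under AS and 57.8 under vehicle (7928 and 6160 reads). This gave a log2 fold change of 0.54, with an interval of the reads from 0.49 to 0.59, which placed it at number 634 of 14197 genes from the top. Eif5 encodes the GTPase activator of eIF2, which works against eIF1 at the start codon. It had 41.3 RPKM under AS and 32.3 under vehicle, for a log2 fold change of 0.36 (interval from 0.32 to 0.39). The ratio of Eif1 to Eif5 per length was 2.04 under AS and 1.79 under vehicle. Eif1 has a close relative, Eif1b, which was the lowest of the group by fold change, with 9.66 RPKM under AS and 10.7 under vehicle. The log2 fold change of Eif1b was -0.15, with an interval from -0.32 to 0.03 that includes 0. The ratio of Eif1 to Eif1b was 8.71 under AS and 5.40 under vehicle. Such ratios between members were chosen after their values were seen, and they do not depend on how the libraries are scaled to each other. They do depend on whether trends with exon length and expression are removed, which shifts genes by different amounts. The intervals of the ratios given below do not cover this. The reads of Eif1 carry some uncertainty, since 19.2% of the 50-base stretches of its transcripts also occur in transcripts of other genes in GENCODE M21. Of 60 factor genes with transcripts there, 14 shared over 10% in this way, among them Eif4a1 (28.4%) and Eif3h (20.3%).

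The eIF1A genes lay on opposite sides of 0. Eif1a had 21.8 RPKM under AS and 18.2 under vehicle, and Eif1ax, its X-linked relative, 16.7 and 18.4. The log2 fold changes were 0.26 (interval from 0.20 to 0.32) and -0.14 (interval from -0.20 to -0.08), and summed over both genes the log2 ratio was 0.07. Eif1ad, a gene with an eIF1A-like domain, had 9.06 and 7.52 RPKM, a log2 fold change of 0.27.

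Of eIF2, the factor that carries the initiator tRNA, 1 of 3 subunits stood apart. Eif2s2, the gene of the beta subunit, on chromosome 2 from 154871410 to 154892935 on the minus strand, had 153 RPKM under AS and 107 under vehicle (46555 and 36668 reads). This gave a log2 fold change of 0.52 (interval from 0.50 to 0.54). Eif2s1, the gene of the alpha subunit that the stress kinases phosphorylate, had 31.6 RPKM under AS and 32.5 under vehicle. The fold change of Eif2s1 was -0.04 on the log2 scale, with an interval from -0.09 to 0.01. Eif2s3x, the X-linked gene of the gamma subunit, measured 47.3 and 44.8, a log2 fold change of 0.08, which turned to the other side of 0 under upper-quartile scaling. The beta gene thus had 4.85 RPKM per RPKM of the alpha gene with AS and 3.28 with the vehicle, while the gamma gene had 1.49 and 1.38. On the log2 scale the first ratio differed by 0.56 between the libraries (95% interval from 0.51 to 0.61, by the normal approximation for counts) and the second by 0.12 (from 0.05 to 0.18). Of the Eif2s2 transcripts, 10.2% of the 50-base stretches also occur in other genes, nearly all of them in 1 gene, Gm9892. For Eif2s3x the share was 34.6%, found in Gm2223, and the intervals do not cover this uncertainty. No row for the Y-linked Eif2s3y was in the table.

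The exchange factor eIF2B, which reloads eIF2 with GTP, has 5 subunits, and their genes also differed from each other. Eif2b3 (gamma), on chromosome 4 from 117019402 to 117087306, was the lowest of them in level, with 2.68 RPKM under AS and 1.93 under vehicle (786 and 639 reads). Its log2 fold change was 0.46, or 0.48 from the reads alone, with an interval from 0.32 to 0.63. Eif2b1 (alpha) had 5.89 RPKM under AS and 4.82 under vehicle, for a log2 fold change of 0.28 (interval from 0.13 to 0.45). The more abundant subunit genes were not higher with AS, and Eif2b2 and Eif2b4 turned to the other side of 0 with trends in exon length and expression removed. Eif2b5, the gene of the catalytic epsilon subunit, had 65.2 and 73.9 RPKM, a log2 fold change of -0.18, the lowest of the eIF2 and eIF2B genes, and Eif2b2 and Eif2b4 lay at -0.03 and -0.02. The ratio of Eif2b3 to Eif2b5 differed by 0.66 between the libraries on the log2 scale (interval from 0.50 to 0.82). Eif2a and Eif2d, which bring initiator tRNA in other ways, had log2 fold changes of -0.08 and -0.12.

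**Figure D2:**
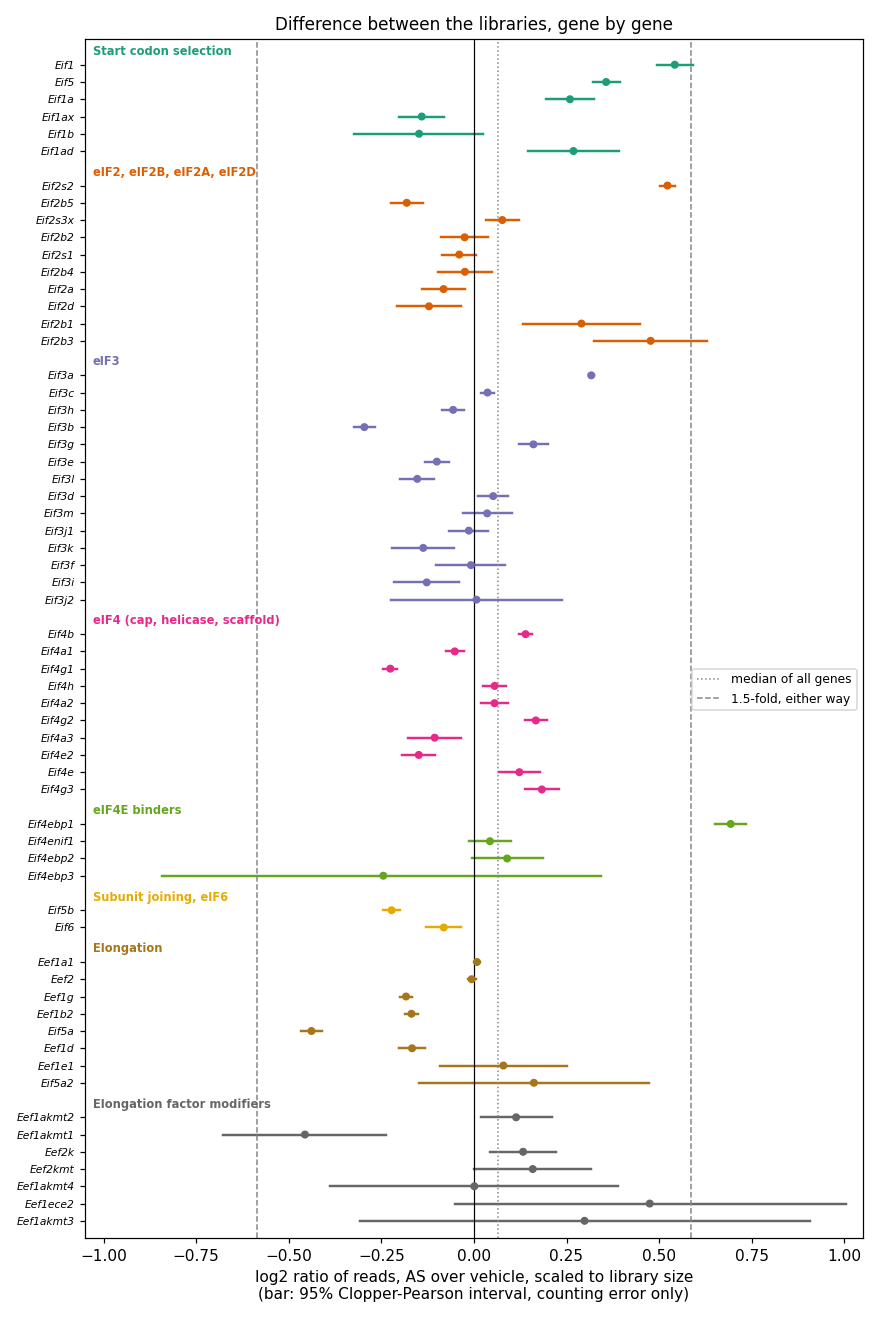
Log2 ratio of the recovered reads of AS over vehicle, scaled to the library sizes, for each factor gene (point) with its 95% Clopper-Pearson interval (bar), which covers counting error only. Dashed lines mark a 1.5-fold difference either way and the dotted line the median of all genes. Eif4ebp1 lies right of the upper dashed line with its whole interval, and Eif1, Eif2s2 and Eif2b3 come next.

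The largest complex, eIF3, bridges the small subunit and the cap-bound factors. Among its 14 genes, 6 were above 0 and 8 below, with a median log2 fold change of -0.01 and 12 of 14 within 0.2 of 0. Eif3a, the gene of the largest subunit, on chromosome 19 from 60761117 to 60790658 on the minus strand, was far above the others. It measured 883 RPKM under AS and 709 under vehicle (346179 and 314507 reads), more reads than any other factor gene had. It ranked number 42 of all genes by RPKM with AS and number 60 with the vehicle. The log2 fold change was 0.32 (interval from 0.31 to 0.32), the highest in eIF3. Eif3b, the scaffold subunit gene on chromosome 5 from 140419328 to 140443360, was the lowest, with 121 RPKM under AS and 149 under vehicle. Its log2 fold change was -0.30 (interval from -0.32 to -0.27). Per length, Eif3a stood at 7.29 times Eif3b with AS and 4.77 times with the vehicle, a difference of 0.61 on the log2 scale (interval from 0.58 to 0.64).

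The other eIF3 genes lay between these. Eif3c followed in level at 298 RPKM under AS and 290.2 under vehicle (log2 fold change 0.04), and then Eif3h at 218 and 226 (-0.06), and both changed side with the scaling or with trends removed. Eif3g had 111 RPKM under AS and 99.4 under vehicle, for a log2 fold change of 0.16, and no other eIF3 gene but Eif3a was higher by as much. Eif3e, Eif3l, Eif3k and Eif3i had log2 fold changes from -0.15 to -0.10. Eif3d, Eif3f, Eif3j1, Eif3j2 and Eif3m lay within 0.06 of 0, which is less than the shift between scalings. The table gave 14 levels from 2.73 to 709 RPKM with the vehicle for subunits of 1 complex. Eif3a held 41.4% of the summed RPKM of eIF3 with the vehicle and 47.4% with AS. All 14 genes took 1.08% of all reads with AS and 0.936% with the vehicle. Without Eif3a, the other 13 took 0.306% of all reads with AS and 0.316% with the vehicle, so the larger share of eIF3 with AS rested on Eif3a. The genes Eif3j1 and Eif3j2 are near copies, and 90.8% of the 50-base stretches of Eif3j2 are found in Eif3j1. Their split of reads is uncertain, and summed over both the log2 ratio was -0.01. For Eif3d, 43.3% of the exon bases lie opposite exons of an antisense gene, Gm17638. The library kit was stranded, but whether the counting used the strand is not given in the sources used here.

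The cap-binding factors and their helicases were nearly level between the libraries. Of 10 genes, 6 were higher and 4 lower, the median log2 fold change was 0.06 (-0.02 with upper-quartile scaling), and 9 of 10 lay within 0.2 of 0. Eif4b, the gene of a helicase cofactor on chromosome 15 from 102073773 to 102097173, was the highest, with 251 RPKM under AS and 228 under vehicle, for a log2 fold change of 0.14. Eif4g1, the gene of the main scaffold that joins eIF4E, eIF4A and eIF3, on chromosome 16 from 20668313 to 20692884, had 119 RPKM under AS and 139.7 under vehicle (39167 and 51834 reads). Its log2 fold change was -0.23 (interval from -0.24 to -0.21), the lowest of the group. The relatives of this scaffold lay on the other side of 0. Eif4g3 had 14.9 RPKM under AS and 13.1 under vehicle, for a log2 fold change of 0.18 (interval from 0.14 to 0.23), and Eif4g2, whose protein lacks the eIF4E-binding part, 39.3 and 34.98, a log2 fold change of 0.17 (interval from 0.14 to 0.20). The ratio of Eif4g1 to Eif4g3 differed by -0.41 on the log2 scale (interval from -0.46 to -0.36). With the trends removed, the log2 fold changes were -0.16 for Eif4g1 and 0.14 for Eif4g3. Eif4a1, the gene of the main eIF4A helicase, stood at 134 and 139 RPKM and Eif4a2 at 51.0 and 49.0, with log2 fold changes of -0.05 and 0.06, which lie within the shift between scalings. Eif4e, the cap-binding protein gene, had 19.6 RPKM under AS and 17.98 under vehicle, for a log2 fold change of 0.12. Eif4e2, a relative that also binds caps, had 21.4 and 23.7 RPKM, a log2 fold change of -0.15. No rows for Eif4e1b or Eif4e3 were in the table.

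The only factor gene that rose or fell at least 1.5-fold was Eif4ebp1, the gene of the eIF4E inhibitor 4E-BP1 and a known target of ATF4. Its position is chromosome 8, 27260329 to 27276674, plus strand. It measured 110.4 RPKM under AS and 68.3 under vehicle (10888 and 7619 reads). This gave a log2 fold change of 0.69, with an interval from 0.65 to 0.74, number 336 of the 14197 genes from the top. It ranked number 453 by RPKM with AS and number 774 with the vehicle. The other 4E-BP genes did not share this size of difference. Eif4ebp2 had 6.56 RPKM under AS and 6.16 under vehicle, for a log2 fold change of 0.09 with an interval from -0.01 to 0.19. Eif4ebp3 had only 44 and 59 reads (1.32 and 1.56 RPKM) and a log2 fold change of -0.23 with an interval from -0.84 to 0.34. For Eif4ebp3, 67.3% of the exon bases are shared with another annotated gene on the same strand. Eif4ebp1 was thus most of the summed 4E-BP level in both libraries. Per RPKM of Eif4e, the target of these inhibitors, the level of Eif4ebp1 was 5.64 under AS and 3.80 under vehicle, a difference of 0.57 on the log2 scale (interval from 0.50 to 0.64). That of Eif4ebp2 was 0.335 and 0.343. With the trends removed, the log2 fold changes were 0.83 for Eif4ebp1 and 0.11 for Eif4e. Eif4enif1, the gene of 4E-T, which binds eIF4E and carries it into the nucleus and to P-bodies, had 16.6 and 16.2 RPKM, a log2 fold change of 0.04.

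**Figure D3:**
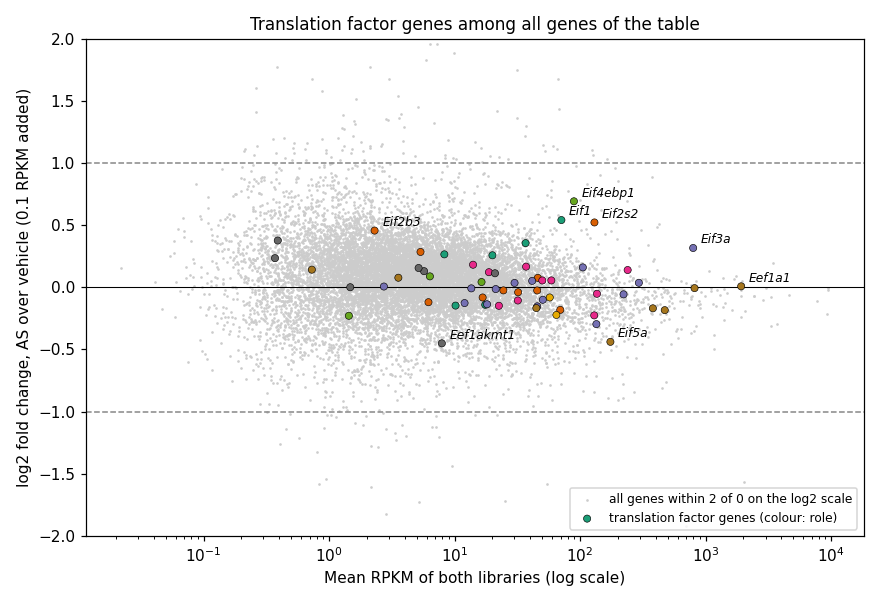
Log2 fold change of AS over vehicle, with 0.1 RPKM added, against the mean RPKM of both libraries on a log axis, for the factor genes (coloured by role) and all genes of the table within 2 of 0 (grey). Dashed lines mark a log2 fold change of 1 either way. The factor genes lie to the right of the bulk, and none of the 61 reaches a dashed line.

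Eif5b and Eif6, the genes of subunit joining, were both lower with AS, although Eif6 lay at 0.01 with the trends removed. Eif5b, the gene of the GTPase that joins the large subunit, on chromosome 1 from 37998010 to 38055579, had 59.8 RPKM under AS and 69.7 under vehicle, for a log2 fold change of -0.22 (interval from -0.25 to -0.20). Of its exon bases, 16.8% lie opposite exons of Rev1. Eif6, which keeps free large subunits apart from small ones, had 55.7 and 58.96 RPKM, a log2 fold change of -0.08.

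The elongation factors held the most abundant mRNAs and a median log2 fold change of -0.09 (0.01 with the trends removed), with 3 of 8 higher and 5 lower. Eef1a1, the carrier of aminoacyl-tRNA, on chromosome 9 from 78478449 to 78489151 on the minus strand, had 1925 RPKM under AS and 1914 under vehicle, and ranked number 16 and 21 of all genes. Its log2 fold change was 0.01 (interval from -0.00 to 0.02). Eef2, the translocase gene, had 815 and 818 RPKM, a log2 fold change of -0.01. Both lie within the shift between scalings, and the ratio of Eef1a1 to Eef2 was 2.36 under AS and 2.34 under vehicle. The exchange factor eEF1B was lower in each of its subunits, by an amount that depended on the processing. Eef1b2 had 358 RPKM under AS and 402 under vehicle, Eef1d 42.2 and 47.4, and Eef1g 443 and 503. Their log2 fold changes were -0.17, -0.17 and -0.18, and with the trends removed -0.03 for Eef1b2, -0.12 for Eef1d and -0.05 for Eef1g. The ratio of Eef1b2 to Eef1d was 8.48 in both libraries, with an interval of the log2 difference from -0.04 to 0.04, and that of Eef1g to Eef1b2 was 1.24 under AS and 1.25 under vehicle. Without the removal of trends, the balance among the eEF1B genes differed between the libraries by less than counting error. With the trends removed, Eef1d was the lowest of them. Of the transcripts of Eef1g and Eef1a1, 44.2% and 39.4% of the 50-base stretches also occur in other genes. Eef1e1, a part of the multisynthetase complex, had 3.66 and 3.47 RPKM, a log2 fold change of 0.08 (interval from -0.09 to 0.25). No row for Eef1a2, the muscle and neuron form of eEF1A, was in the table.

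Eif5a, the gene of the hypusine-bearing factor, on chromosome 11 from 69916714 to 69921958 on the minus strand, was the lowest of the elongation factors by fold change. It measured 148 RPKM under AS and 201 under vehicle (15805 and 24244 reads). This gave a log2 fold change of -0.44 (interval from -0.47 to -0.41), number 603 of 14197 genes from the bottom. Of its 50-base stretches, 3.77% are shared with other genes. Eif5a2, its second form, was at 0.771 RPKM under AS and 0.689 under vehicle (174 and 176 reads). This gave a log2 value of 0.14, with an interval of the reads from -0.15 to 0.47. Eif5a exceeded it 192 times per length with AS and 291 times with the vehicle. Dhps and Dohh, the genes of the enzymes that make hypusine on eIF5A, had log2 fold changes of 0.36 and -0.06.

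The modifiers of elongation factors were expressed at low levels, with a median log2 fold change of 0.13. With AS, 6 of 7 were higher, against 60.9% of all genes. Eef1akmt2, a lysine methyltransferase of eEF1A, was the highest, with 21.8 and 20.2 RPKM, a log2 fold change of 0.11. Eef1akmt1, of the same kind, on chromosome 14 from 57549597 to 57571612, had 6.68 RPKM under AS and 9.16 under vehicle (284 and 441 reads). Its log2 fold change of -0.45 was the lowest of all factor genes, with an interval from -0.68 to -0.24. Eef2k, the kinase that stops eEF2, had 5.98 and 5.45 RPKM, a log2 fold change of 0.13. The highest fold change of the group, that of Eef1ece2, rested on 70 and 57 reads, and its log2 fold change of 0.38 with 0.1 RPKM added, or 0.47 from the reads, had an interval from -0.05 to 1.01. Eef1ece2 was taken by its name, and these data do not show whether its product modifies an elongation factor. Eef1akmt3 (0.23) and Eef1akmt4 (0.00) also had intervals that include 0. Of the Eef1akmt4 transcripts, 27.9% of the 50-base stretches also occur in another gene, Gm49333.

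The promoter sequences of RefSeq (GRCm38.p6), from 250 bases before to 50 after an annotated start, were searched for motifs. Entries were found for 46 of the 61 genes. This is 75.4% and under the 80% set for such a check, so a share over the factor genes is void and nothing is drawn from it. No entry was found for Eef1akmt1, Eef1akmt3, Eef1d, Eef1ece2, Eef1g, Eif1a, Eif2b3, Eif3e, Eif3h, Eif3i, Eif3j2, Eif4ebp1, Eif4ebp3, Eif4g2 and Eif6. The E-box CACGTG, the site of MYC and related proteins, reads the same on both strands. It was in 13 of the 46 genes. It was also in 8.09% of the 27025 genes with a RefSeq promoter, or 11.7% of the 9680 of these that are in the table. With the check void, these values are not compared, and genes with several annotated starts had more windows to hold a match. The factor genes with the E-box had fold changes on both sides of 0. The stretches that follow show it before an annotated RefSeq start of 4 genes of the cap complex and of elongation described above. They are read 5′ to 3′ on the strand of the gene, with the E-box in capitals. Those of Eif5a, Eif4g1 and Eif4e lie inside the GENCODE bounds of the gene, before a RefSeq start further in. The outermost RefSeq windows of Eif5a (chr11:69921909-69922208) and Eif4e (chr3:138525941-138526240) hold no E-box.
Eif5a, upstream E-box, chr11:69921444-69921471 on the minus strand: aggggcggggtCACGTGtgtgcgtcatc
Eif5a, downstream E-box, chr11:69920792-69920819 on the minus strand: cgctgcgcggcCACGTGaggtgggggag
Eif4g1, chr16:20672662-20672689 on the plus strand: gcagtgggtgtCACGTGatggggcggag
Eif4e, distal E-box, chr3:138527029-138527056 on the plus strand: tcgccagcgacCACGTGatcactttttt
Eif4e, proximal E-box, chr3:138527193-138527220 on the plus strand: gacacgtccgtCACGTGggcaggagccg
Eef2, chr10:81176577-81176604 on the plus strand: cccggcgccgtCACGTGacgcacccaac

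Eif4g1, Eif4e and Eef2 each hold the E-box, and their log2 fold changes were -0.23, 0.12 and -0.01. Many mRNAs of the translation machinery begin with a tract of pyrimidines that mTORC1 signalling acts on. A start with C followed by at least 4 bases of C or T was found at the RefSeq start of Eif2s3x and Eif3f. It was also in 3.01% of all genes with a promoter (3.21% of those in the table). Among the cytosolic ribosomal protein genes with an entry, 13 of 59 had it. Eef1a1, Eef1b2 and Eef2 had no match. The rule reads only the annotated start base, so no match does not show that an mRNA lacks the tract. The stretches of Eif2s3x and Eif3f run from 15 bases before the start to 15 from it. The pyrimidine tract from the start base on is in capitals.
Eif2s3x, chrX:94212637-94212666 on the minus strand: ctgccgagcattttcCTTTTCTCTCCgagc
Eif3f, chr7:108934400-108934429 on the plus strand: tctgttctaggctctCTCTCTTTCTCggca

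Eif3f had an RPKM of 13.6 in both libraries. The motif TGATGNAA, a form of the C/EBP-ATF response element through which ATF4 acts, was searched on both strands and does not overlap the E-box in its letters. It was found in Eif2s3x and Eef2k, and in 4.51% of all genes with a promoter (2.56% of those in the table). Both matches lie on the opposite strand and are shown in capitals as read on the strand of the gene.
Eif2s3x, chrX:94212729-94212758 on the minus strand: ttcgccatcatTTTCATCAggtctatgccg
Eef2k, chr7:120851094-120851123 on the plus strand: ctttctgcttgTTTCATCAagctcagcttg

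The log2 fold changes of these genes were 0.08 and 0.13. For Eef2k the match lies in the RefSeq window at chr7:120850939-120851238, and its other windows do not hold it. Eif4ebp1 has no promoter entry, and whether the motif goes with the fold changes was not tested. No match says only that these letters are not in the window.

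The genes around the factors were taken from lists of their known roles. Of the 9 genes of the eIF2 kinases, their regulators and the eIF2 phosphatase, 1 rose past a log2 fold change of 1, against 0.662% of all genes. This was Ppp1r15a, the regulatory subunit of the phosphatase that is made under stress. It measured 20.3 RPKM under AS and 9.01 under vehicle, a log2 fold change of 1.17. Ppp1r15b, the constitutive form, had 10.96 and 9.01 RPKM, a log2 fold change of 0.28. The 4 kinase genes Eif2ak1 to Eif2ak4 lay between -0.03 and 0.19. The list of the mTORC1, S6 kinase and MNK pathways to eIF4 held 14 genes, with a median of 0.19. Of them 0 fell at least 1.5-fold, against 2.01% of all genes, and 2 rose as much, against 3.56% of all genes. These were Sesn2, an inhibitor of mTORC1 in amino acid shortage, at 2.68 RPKM under AS and 1.55 under vehicle (0.75, interval from 0.56 to 1.01), and Mknk1, a kinase of eIF4E, at 5.67 and 3.42 (0.71, interval from 0.60 to 0.86). Mknk2, the other kinase of eIF4E, had a log2 fold change of 0.14, and Ddit4, another inhibitor of mTORC1, one of -0.32. Deptor and Mlst8, of the same list, lay just under a 1.5-fold rise, at 0.57 and 0.56.

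Next came the lists of release and recycling, poly(A) binding, alternative initiation, the hypusine, diphthamide and selenocysteine genes, and the mitochondrial factors. These lists had 0 genes that rose at least 1.5-fold, against 3.56% of all genes, and 0 that fell as much, against 2.01% of all genes. Their medians were 0.15, 0.15, 0.11, 0.14 and 0.08. The largest differences in them were those of Abce1, the ribosome recycling ATPase (0.30), Paip2b, an inhibitor of poly(A)-binding protein (0.35), the helicase Ddx3x (0.24), Dhps (0.36) and Tufm, the mitochondrial form of eEF1A (-0.28). Of the release and recycling list 4 of 6 genes were in the table, and of the others all.

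**Figure D4:**
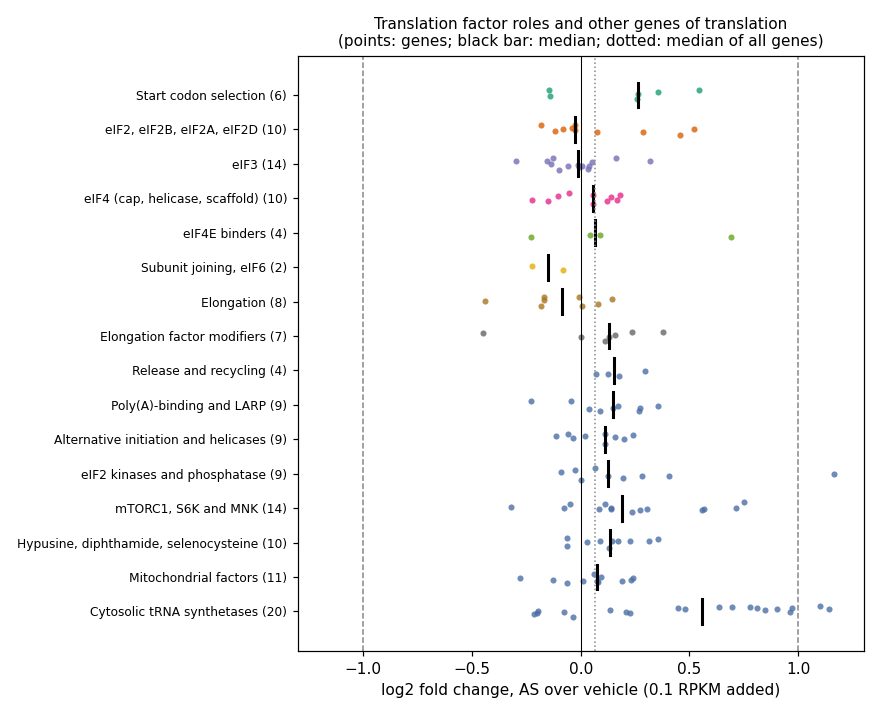
Log2 fold change of AS over vehicle, with 0.1 RPKM added, for each gene (points, spread vertically at random) of the factor groups and of the other lists of translation, with the number of genes in parentheses and the median as a black bar. Dashed lines mark 1 either way and the dotted line the median of all genes. The factor groups lie between -0.45 and 0.69, while the cytosolic tRNA synthetases reach 1.14.

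Next to the factors, the other parts of the cytosolic translation machinery had other distributions. The 20 cytosolic aminoacyl-tRNA synthetase genes had a median log2 fold change of 0.56. Of them 10 rose at least 1.5-fold, against 3.56% of all genes, and 0 fell as much, against 2.01% of all genes. The 80 cytosolic ribosomal protein genes had a median of -0.08, which turned to 0.05 with the trends removed. Of them 75 were lower with AS, while 60.9% of all genes were higher. At least 1.5-fold, 0 of them rose, against 3.56% of all genes, and 0 fell, against 2.01% of all genes. The quartiles of the ribosomal protein genes were -0.15 and -0.06, against -0.13 and 0.14 for the factor genes. With 1 library per condition the differences between these lists were not tested.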

How the data were processed

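Total RNA of 4T1 cells was made into stranded mRNA libraries, 1 with AS and 1 with the vehicle. The submitters' processing notes name fastp 0.23.4, STAR 2.5.3a, featureCounts and the build GRCh38, a human build, although the table holds mouse symbols. The paper names DESeq2 for the authors' differential expression. The gene annotation and the filter on low genes are not given in the sources used here. The authors deposited 1 table with the RPKM of each library (the unit is not named in the header and was found from the values), the log2 of the mean CPM over both libraries, and columns of the authors' own comparison (fold change, p-value and FDR). The columns of that comparison were not used.

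RPKM times the summed exon length of GENCODE M21 (GRCm38) was a whole multiple of 1 constant per library for 94.2% of 13502 genes that have 1 entry in it, which gave library sizes of 44909683 and 50820728 reads. For the rest, the exon length near that implied by the deposited mean log2 CPM was taken at which both libraries gave whole reads (within 0.0001). Of the factor genes, 60 were whole at the GENCODE length, and Eef1ece2 was recovered by the second way. The recovery was tested on simulated data. Fold changes used 0.1 RPKM added. No test was made, as planned for 1 library per condition. Genes, lists and roles were chosen with earlier results of these data known. Named genes are the highest in level and the largest difference either way in each role, those that differed 1.5-fold, and close relatives. Alternatives were other amounts added, 3 scalings, a minimum RPKM of 1 and removal of trends with exon length and expression (20 bins, 3 rounds). Python 3.11 with scipy 1.17.1 was used.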

Additional observations from a re-analysis of the deposited data

How the results depend on the processing

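The count of factor genes past a log2 fold change of 1 was 0 each way under all 7 settings tried (0 or 1 RPKM added, scaling by TMM, by the median of ratios or by the upper quartile, a mean RPKM of at least 1, and trends removed). With the threshold at 1.5-fold, 1 gene was higher and 0 were lower, and the count of higher genes was 1 under each of these settings but for the removal of trends with exon length and expression, where it was 3, with Eif4ebp1 at 0.83, Eif1 at 0.64 and Eif2s2 at 0.61. The median of the members ran from -0.07 (upper-quartile scaling) to 0.07 (trends removed), and the mean was 0.03. TMM scaling lowered each log2 value by about 0.07, so that 23 of the 61 genes were higher with AS instead of 32, and 9 changed sign. Under upper-quartile scaling, with a shift of 0.08, 11 changed sign. Under the removal of trends, 8 changed sign and 40 were higher. The medians of the eIF2 and eIF2B (0.05), eIF3 (0.01), elongation (0.01) and ribosomal protein genes (0.05) were above 0 with trends removed, and those of the eIF4 genes (-0.02) and eIF4E binders (-0.01) below 0 with upper-quartile scaling, where that of the mitochondrial factors was also just below 0. The cause was not tested. Leaving out a library was not possible with 1 per condition. No paired analysis was possible because each condition has 1 library. Depth limits the genes under about 100 reads, Eif4ebp3, Eef1akmt3 and Eef1ece2, whose intervals include 0.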
